A study of Homo sapiens with 4 samples.

Results

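Earlier work reported a number of genes as targets of *miR-486-5p*, and 8 of them were followed here: *IGF1R*, *PIK3R1*, *FOXO1*, *PIM1*, *SIRT1*, *SMAD2*, *ARHGAP5* and *DOCK3*. They were taken from that literature and not by their values on these arrays, though they were proposed with earlier results of these data known. The study of these arrays also lists *SMAD2* as a putative target of both strands. The probes of the 8 genes were found through the RefSeq accession each probe carries. The 8 genes had 11 probes, of 22439 genes and 58201 probes in all. *ARHGAP5* had 4 probes and each of the other genes had 1. The cells were A549, an established human lung adenocarcinoma line, grown under ordinary culture conditions and handled with a lipid transfection reagent in every group. The *miR-486-5p* group (n = 1 array) received that miRNA strand, the *miR-486-3p* group (n = 1) received the opposite strand of the same hairpin, and the mock group (n = 2) received the reagent alone. No group received an unrelated control miRNA, and the time between transfection and RNA extraction for the arrays is not given in the sources used here. The question addressed was whether transcripts of genes tied to *miR-486-5p* were lower after that strand, and whether they differed between the strands of the hairpin.

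A miRNA guides the silencing complex to matching sites, mostly in the 3′ untranslated part of a messenger RNA, which can lower the level of the transcript or its translation. An array measures the transcript, so a target held down at translation alone would keep its signal. Most of the 8 genes belong to growth factor signalling. The receptor encoded by *IGF1R* activates phosphoinositide 3-kinase (PI3K), whose main regulatory subunit is encoded by *PIK3R1*, and this leads to activation of the kinase AKT, which holds the transcription factor FOXO1 out of the nucleus. PIM1 is a serine/threonine kinase induced by cytokine signalling that shares substrates with AKT, and SIRT1 is a deacetylase that acts on FOXO proteins among others. SMAD2 carries the signal of TGF-beta and activin receptors to the nucleus. ARHGAP5 switches off small GTPases of the cytoskeleton and DOCK3 switches on the GTPase Rac.

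All 4 arrays came from 1 slide and 1 scan. The scanner software called between 30690 and 31516 probes well above background on an array, no spot was saturated, and the 75th percentile of the signal was 105 with *miR-486-5p*, 93.1 with *miR-486-3p* and 114 on each mock array. Over the 28246 probes well above background on all 4 arrays, mock 2 minus mock 1 had an SD of 0.20 (log2) and 2.80% of probes differed by more than 0.5. The share past 0.5 from the mock mean was 27.0% with *miR-486-5p* and 52.1% with *miR-486-3p*. Of the epithelial marker genes, *KRT8*, *KRT18* and *KRT19* were well above background on all 4 arrays and *CDH1* on none. Of 6 alveolar type II genes, *SFTPC*, *NAPSA* and *ABCA3* were, and *SFTPB* and *SFTPA1* were well above background on no array. With *miR-486-5p*, *KRT8* was −0.049 from mock, *KRT18* −0.57 and *KRT19* −0.99. With the opposite strand they were at −0.97, −0.41 and 0.45, so these genes did not move as one. The value of *KRT8* with *miR-486-5p* averages 3 probes that moved in opposite directions, each further from mock than their mean. The summed scaled signal of the epithelial list of 5 genes, which is mostly that of *KRT18*, was 69.7 and 71.1 in the mock group, 48.3 with *miR-486-5p* and 52.5 with *miR-486-3p*. For the 3 leukocyte genes, where it is mostly that of *CD14*, it was 0.24 and 0.27 in the mock group, 0.39 with *miR-486-5p* and 0.88 with *miR-486-3p*. After *miR-486-3p* the other leukocyte genes, *PTPRC* and *CD3E*, were 0.28 and 0.14 from mock. The monocyte marker *CD14* was higher by 2.22 after *miR-486-3p* (limma, adjusted p = 0.00762). The part of these shifts in the results on the 8 genes was not tested.

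All 11 probes were well above background on all 4 arrays, each as 1 spot, with no outlier or saturated spot. Their raw signal stood 1.5 to 35.8 times over the local background, and the scanner software's own error for a spot had a median of 10.1% of its signal and reached 17.0%, the largest being that of the dimmest *ARHGAP5* probe. Values below are the log2 of the background-corrected signal minus the 75th percentile of its array, called scaled log2 signals. The 75th percentile itself is therefore 0, and only values of the same probe can be compared. A gene was counted as lower or higher where it differed from the mock mean by more than 0.5. A probe was called where limma, fitted to all 4 arrays and adjusted over all probes tested, gave an adjusted p under 0.05. With 1 array a strand, limma takes its error from the mock pair and from the other probes, on the assumption that a transfected array would vary likewise. Nothing in the labels says that the mock arrays were separate cultures, so the p-values may measure technical spread alone.

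After *miR-486-5p*, *PIM1* and *SMAD2* were the 2 of 8 genes counted as lower, and *FOXO1* was the 1 gene counted as higher. Over all 16024 genes in use, 15.9% were lower and 13.8% were higher. The median difference of the 8 genes was −0.19, beside 0.030 for all genes. In the limma fit 1 of the 11 probes was called, that of *PIM1*, and it was lower. Among all probes tested 4.49% were called lower and 3.07% higher. The signals of 7 of the 11 probes lay below both mock arrays, 2 above both and the other 2 between them. The share of all probes outside both mock arrays was not computed, so these counts say nothing particular to the 8 genes.

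After *miR-486-3p*, *SMAD2* and *SIRT1* were lower, and *ARHGAP5*, *PIM1*, *FOXO1* and *PIK3R1* were higher. Over all 16446 genes in use, 27.2% were lower and 30.4% were higher. The median of the 8 genes was 0.47, beside 0.058 for all genes. Of the 11 probes, limma called 2 lower and 6 higher, where 24.2% of all probes were called lower and 28.1% higher. Scaling to the median of each array in place of the 75th percentile moved the median of all probes tested by −0.37 for this strand and by −0.076 for *miR-486-5p*. Under that scaling the calls over all probes turned from 8114 lower and 9419 higher to 12734 lower and 6010 higher after *miR-486-3p*. Of the 8 genes the same 2 were then lower and 0 were higher, with a median of 0.096 beside −0.32 for all genes. Each difference from mock below can be read against the median of all probes tested, which was 0.061 in the *miR-486-5p* comparison and 0.13 in that of *miR-486-3p*. That distance does not depend on which of the 2 scalings is used.

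**Figure D1:**
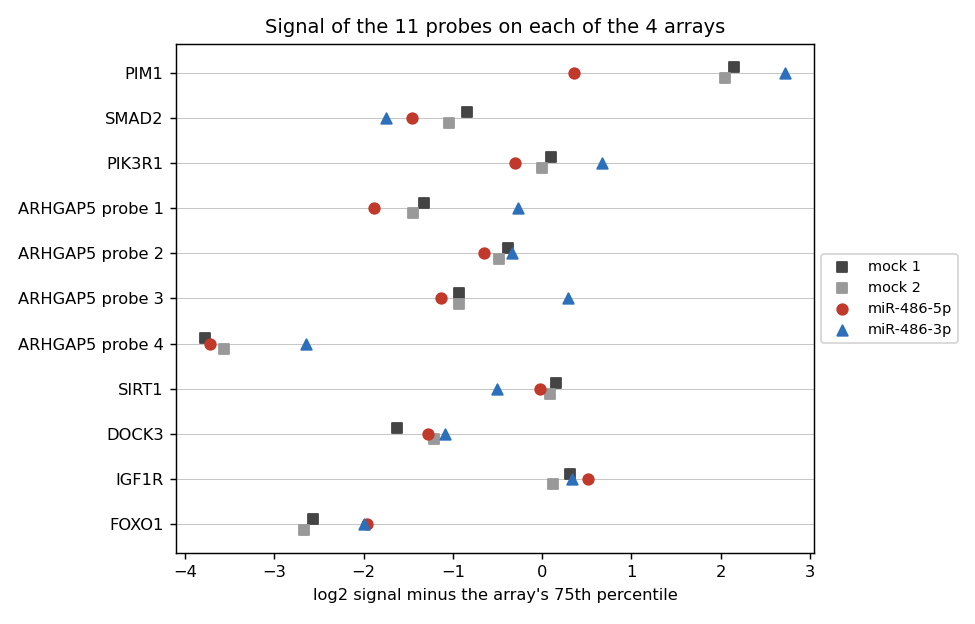
Scaled log2 signal (log2 signal minus the 75th percentile of the array, horizontal axis) of each of the 11 probes on the *miR-486-5p* array (circles), the *miR-486-3p* array (triangles) and both mock arrays (squares). The mock squares lie within 0.41 of each other for every probe, the *PIM1* circle lies far to the left of its mock squares at 0.36 against 2.15 and 2.04, and both strands lie to the right of mock for *FOXO1*.

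*PIM1* had the largest difference of the 8 genes. Its scaled log2 signal was 2.15 on mock 1 and 2.04 on mock 2, 0.36 with *miR-486-5p* and 2.72 with *miR-486-3p*. The transfected arrays thus lay on opposite sides of the mock arrays, which were 0.10 apart. Before scaling, the background-corrected signals of this probe were 506 and 472 for mock, 134 with *miR-486-5p* and 614 with *miR-486-3p*. *PIM1* fell by 1.74 after *miR-486-5p* (limma, SE 0.103, 95% interval −2.08 to −1.40, adjusted p = 0.0475), a 3.34-fold lower level that left 29.9% of the mock signal. Of the 28246 probes well above background on all 4 arrays, 0.450% had a lower difference. The fall was 1.69 against mock 2 alone and 1.79 against mock 1 alone. Its adjusted p ran from 0.000301 to 0.0857 over 7 other limma settings and passed in 5 of them. The 2 settings in which it missed used the authors' log2 values (0.0738) and all probes with no filter on dim ones (0.0857), and in these no probe on the array was called after this strand.

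The same probe rose by 0.63 after *miR-486-3p* (limma, adjusted p = 0.0282), 1.54-fold over mock. This rise stood 0.50 above the median of all probes. It was 0.25 and not called (adjusted p = 0.210, the highest of the 7 other settings, whose lowest was 0.00107) under median scaling. Tested directly, *PIM1* was higher by 2.37 after *miR-486-3p* than after *miR-486-5p* (SE 0.119, 95% interval 1.97 to 2.76, adjusted p = 0.0119), which is 5.16-fold, and this difference was called in 7 of 7 other settings. In the comparison of the strands 22% of all probes tested were called higher after *miR-486-3p* and 21.4% lower. The 7 other settings here and below do not count the methods' t-test, which called 0 probes in each comparison.

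*PIM1* was set among all genes because it had the lowest difference of the 8 genes after *miR-486-5p*. A low rank among all genes is partly given by that choice. Of the 13471 genes with every probe well above background on the 4 arrays, 69 others (0.512%) were at or below *PIM1* after *miR-486-5p*. The pattern of lower after *miR-486-5p* and higher after *miR-486-3p*, past 0.5 each way, was met by 335 genes (2.49%). Under median scaling *PIM1* was 0.25 from mock after *miR-486-3p*, so it would not meet this pattern. Taking the pair of differences from mock as coordinates, the nearest of the other 13470 genes was *MTMR11*, with differences of −1.61 (*miR-486-5p*) and 0.65 (*miR-486-3p*), at a distance of 0.14. *MTMR11* encodes a member of the myotubularin family. The next were *CA11*, of the carbonic anhydrase family, with −1.60 and 0.75, and *SMKR1* with −1.88 and 0.50. This likeness rests on 2 differences that share the mock arrays. The other PIM kinases had their own values. *PIM3* was lower by 0.76 after *miR-486-5p* (limma, adjusted p = 0.0519) and −0.059 from mock after *miR-486-3p*, where quantile normalization gave 0.17. *PIM2* stood at −0.0013 after *miR-486-5p* and fell by 1.45 after *miR-486-3p* (adjusted p = 0.00881).

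*SMAD2* was below both mock arrays after each strand. Its scaled log2 signal was −0.85 on mock 1 and −1.05 on mock 2, −1.46 with *miR-486-5p* and −1.75 with *miR-486-3p*. The groups did not overlap for either strand, and the mock arrays were 0.20 apart. After *miR-486-5p* the difference was −0.52 (limma, SE 0.137, 95% interval −0.98 to −0.055, adjusted p = 0.112), or 69.9% of the mock signal, and the probe was not called. It was −0.41 against mock 2 alone, which is inside the limit of 0.5, so that *PIM1* was then the 1 gene counted as lower. After *miR-486-3p* *SMAD2* fell by 0.80 (SE 0.137, adjusted p = 0.0302), to 57.3% of mock, and was called in 5 of 7 other settings (adjusted p 0.00458 to 0.0746). The probe was dim, 2.63 to 4.25 times over its local background. A different background correction (normexp with an offset) gave −0.12 (*miR-486-5p*) and −0.19 (*miR-486-3p*) instead. The strands themselves differed by −0.29 (*miR-486-3p* minus *miR-486-5p*, 95% interval −0.82 to 0.24, adjusted p = 0.238).

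*FOXO1* was above both mock arrays after each strand. Its scaled log2 signal was −2.57 and −2.67 in the mock group, −1.96 with *miR-486-5p* and −1.999 with *miR-486-3p*, so neither strand overlapped mock. After *miR-486-5p* it was 0.66 over mock (limma, SE 0.102, 95% interval 0.32 to 1.01, adjusted p = 0.0599), 1.58-fold, and missed the threshold. Its adjusted p ran from 0.0137 to 0.107 over 7 other settings and passed in 3. After *miR-486-3p* *FOXO1* rose by 0.62 (adjusted p = 0.0280), but by 0.25 under median scaling, where it was not called, and it was called in 3 of 7 other settings (adjusted p 0.00623 to 0.211). The strands differed by −0.040, with a 95% interval from −0.43 to 0.35. The background-corrected signal was low, between 17.9 and 26.9 on the 4 arrays.

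*IGF1R* and *PIK3R1*, the receptor and the regulatory subunit above AKT, differed in what the arrays showed. *IGF1R* had scaled log2 signals of 0.31 and 0.12 in the mock group, 0.52 with *miR-486-5p* and 0.34 with *miR-486-3p*. Both strands were above both mock arrays, which were 0.19 apart, though the *miR-486-3p* array passed mock 1 by a margin smaller than that. The differences were 0.30 after *miR-486-5p* (limma, 95% interval −0.14 to 0.74, adjusted p = 0.213) and 0.12 after *miR-486-3p* (−0.32 to 0.56, adjusted p = 0.472), and neither was called. *PIK3R1* stood at 0.099 and 0.0017 in the mock group, at −0.30 with *miR-486-5p* and at 0.67 with *miR-486-3p*. The strands lay on opposite sides of mock, as they did for *PIM1*. After *miR-486-5p* *PIK3R1* was −0.35 from mock (limma, SE 0.101, 95% interval −0.69 to −0.013, adjusted p = 0.123), and after *miR-486-3p* it rose by 0.62 (adjusted p = 0.0281), a rise that was 0.24 and not called under median scaling. The difference between the strands was 0.97 (SE 0.117, 95% interval 0.58 to 1.36, adjusted p = 0.0214), 1.96-fold, and it was called in 6 of 7 other settings.

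*SIRT1* was lower after *miR-486-3p* than on either mock array. Its scaled log2 signal was 0.16 and 0.086 for mock, −0.022 with *miR-486-5p* and −0.51 with *miR-486-3p*. Both strands lay below both mock arrays. After *miR-486-5p* the difference was −0.145 (limma, 95% interval −0.46 to 0.17, adjusted p = 0.352). After *miR-486-3p* *SIRT1* fell by 0.63 (SE 0.0953, adjusted p = 0.0247) to 64.7% of mock, and it was called in 7 of 7 other settings, with adjusted p from 0.00260 to 0.0491. The difference between the strands was −0.48 (95% interval −0.85 to −0.11, adjusted p = 0.0568) and missed the threshold. It was called, lower after *miR-486-3p*, in 5 of 7 other settings (adjusted p 0.0144 to 0.0846).

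**Figure D2:**
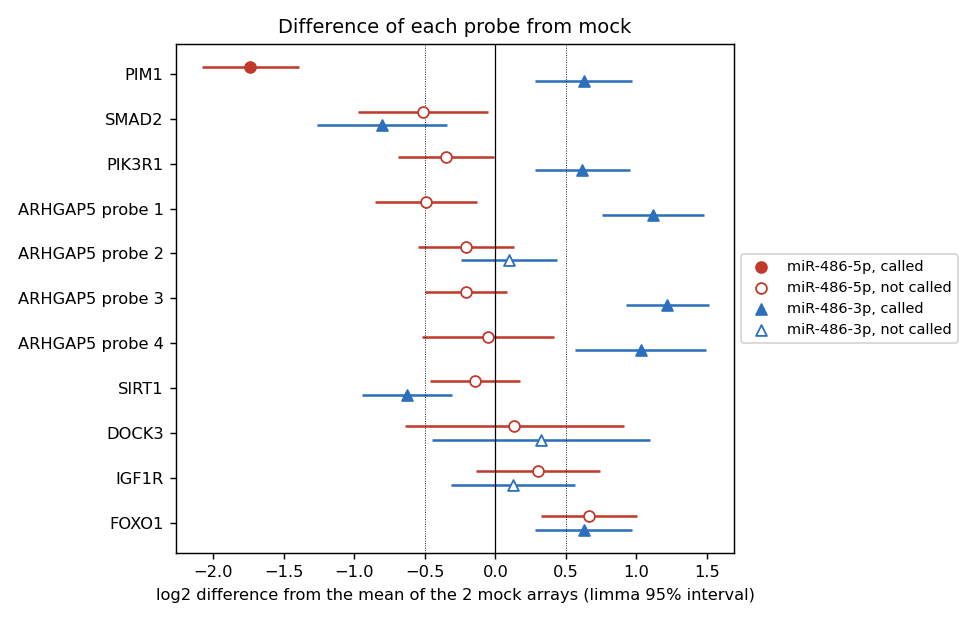
Log2 difference of each of the 11 probes from the mock mean (n = 2, horizontal axis) after *miR-486-5p* (circles) and *miR-486-3p* (triangles), with the 95% interval of limma as a bar and filled symbols where the probe was called. The dotted lines mark −0.5 and 0.5. *PIM1* carries the single filled circle, at −1.74, while 8 of the 11 triangles are filled, 2 to the left of 0 and 6 to the right.

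The 4 probes of *ARHGAP5*, a GTPase-activating protein, did not give the same value. Probe A_23_P48535 had scaled log2 signals of −0.93 on both mock arrays, −1.14 with *miR-486-5p* and 0.29 with *miR-486-3p*. Probe A_33_P3386459 had −1.33 and −1.45 for mock, −1.88 with *miR-486-5p* and −0.27 with *miR-486-3p*. Probe A_33_P3386453, the dimmest, had −3.78 and −3.57 for mock, −3.72 with *miR-486-5p* and −2.64 with *miR-486-3p*. In these 3 probes the *miR-486-3p* array was well above both mock arrays. Probe A_33_P3242483 had −0.39 and −0.49 for mock, −0.65 with *miR-486-5p* and −0.34 with *miR-486-3p*, so that all 4 of its values lay close together.

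The first 3 of these probes rose after *miR-486-3p*, by 1.22, 1.12 and 1.03 (limma, adjusted p = 0.00931, 0.0128 and 0.0206), while the fourth was 0.099 from mock (95% interval −0.24 to 0.44, adjusted p = 0.461). The mean over the 4 probes was 0.87, or 1.82-fold, and the value was 0.099 where the brightest probe stood for the gene. After *miR-486-5p* the 4 probes ranged from −0.49 to −0.052, with a mean of −0.24, and none was called. The lowest, A_33_P3386459, had an adjusted p of 0.0877. Between the strands A_23_P48535, A_33_P3386453 and A_33_P3386459 were higher after *miR-486-3p* by 1.43, 1.08 and 1.61 (adjusted p = 0.0127, 0.0288 and 0.0136), and A_33_P3242483 by 0.31 (adjusted p = 0.135). Which transcripts of the gene each probe reads was not tested. *DOCK3*, an exchange factor for Rac, had the least certain value of the 8 genes. Its scaled log2 signal was −1.62 on mock 1 and −1.21 on mock 2, −1.28 with *miR-486-5p* and −1.09 with *miR-486-3p*. The mock arrays differed by 0.41, and the *miR-486-5p* array lay between them. The differences were 0.13 (limma, 95% interval −0.64 to 0.91, adjusted p = 0.700) and 0.32 (adjusted p = 0.317).

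In the comparison of the strands, 5 of the 11 probes were called, all higher after *miR-486-3p*: those of *PIM1*, *PIK3R1* and 3 of *ARHGAP5*. Beside them, of all 33499 probes tested 7169 (21.4%) were called lower and 7380 (22%) higher, and under median scaling 10766 lower and 5344 higher. Of the 11 probes, median scaling gave 1 called lower, that of *SIRT1*, and 5 higher, as did 4 of the other settings. The direct contrast compares 1 array with 1 array, and its error again comes from the mock arrays.

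**Figure D3:**
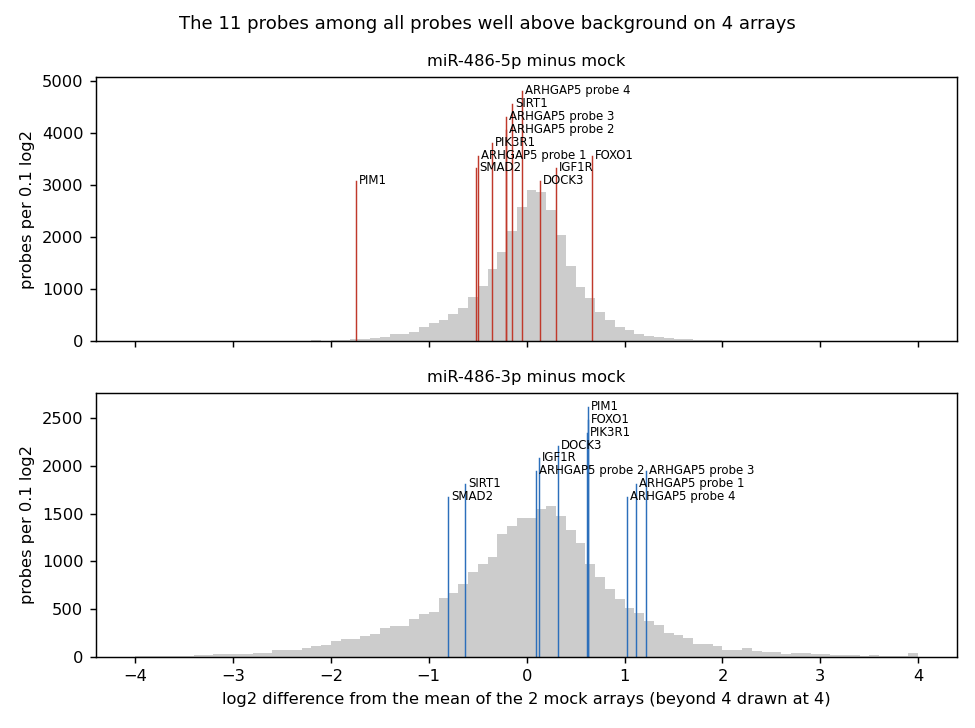
Number of probes in each bin of 0.1 (vertical axis) by log2 difference from the mock mean (horizontal axis) over the 28246 probes well above background on all 4 arrays, with coloured lines at the values of the 11 probes, for *miR-486-5p* (upper panel) and *miR-486-3p* (lower panel). The *PIM1* line lies in the lower tail after *miR-486-5p*, the other lines lie inside the body of each distribution, and the distribution is wider after *miR-486-3p* (SD 0.98) than after *miR-486-5p* (SD 0.52).

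Other genes that have been tied to miR-486 in earlier work were read in the same way. *SAPCD2* among them was also picked by the study of these arrays, partly by its values on them. Its values here are therefore no independent support. Of the ribosomal S6 kinases, *RPS6KA1* had −0.18 and 0.33 and *RPS6KB1* had −0.082 and 0.69, in the order *miR-486-5p* and *miR-486-3p*. None of their probes was called after *miR-486-5p*, while 1 of 2 and 2 of 3 rose after *miR-486-3p*. *SAPCD2* was −0.63 from mock after *miR-486-5p* (adjusted p = 0.0946) and fell by 1.83 after *miR-486-3p* (adjusted p = 0.0105). The reference gene *GAPDH* was −0.24 from mock after *miR-486-5p* (adjusted p = 0.173) and 0.36 after *miR-486-3p* (adjusted p = 0.0563), where median scaling gave −0.012. *RPS6KA1* after *miR-486-3p* was −0.045 under that scaling.

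The closest relatives of the 8 genes were measured too. Several of their values below for *miR-486-3p* depend on the scaling. Under median scaling *SMAD5* (0.17), *SIRT3* (0.26) and *FOXO3* (0.42) were inside 0.5, while *SMAD1* (−0.72), *DOCK4* (−0.87) and *PIK3R3* (−0.85) were past −0.5. *SMAD3* was at −0.91 under median scaling and at −0.35 under quantile normalization. *INSR*, the insulin receptor and relative of *IGF1R*, was 0.00084 from mock after *miR-486-5p* and rose by 2.84 after *miR-486-3p* (limma, adjusted p = 0.00762). *PIK3R2*, another regulatory subunit of PI3K, stood at −0.18 after *miR-486-5p* and fell by 1.56 after *miR-486-3p* (adjusted p = 0.00821), while *PIK3R1* rose there. *PIK3R3* had −0.43 and −0.47, neither called. All 3 probes of *FOXO3* rose after *miR-486-3p*, by 0.79 on average, and none was called after *miR-486-5p* (−0.10). *FOXO4* was higher by at least 1.53 after *miR-486-5p*, where 1 of its 2 probes was called (adjusted p = 0.0475) and 1 was not well above background in the mock group. *SMAD3*, which acts beside SMAD2, was −0.76 from mock after *miR-486-5p* (adjusted p = 0.0520) and fell by 0.53 after *miR-486-3p* (adjusted p = 0.0295). *SMAD1* and *SMAD5*, which serve the BMP receptors, stood at −0.027 and 0.020 after *miR-486-5p*. After *miR-486-3p*, *SMAD5* rose by 0.55 (adjusted p = 0.0269) and *SMAD1* was at −0.34, not called. *SIRT2* fell by 1.41 after *miR-486-3p* in both of its probes and *SIRT3* rose by 0.63 (adjusted p = 0.0235). *DOCK4* fell by 0.50 after *miR-486-3p* (adjusted p = 0.0358), and *ARHGAP35*, the nearest relative of *ARHGAP5*, had −0.14 and −0.11, with no probe called.

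**Figure D4:**
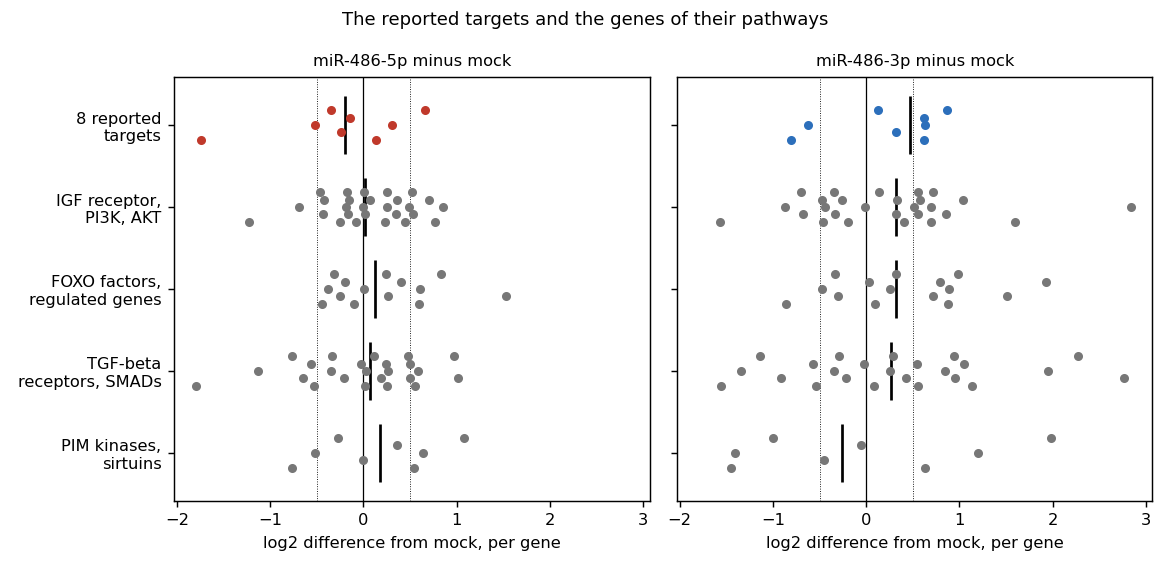
Log2 difference from mock per gene (horizontal axis) after *miR-486-5p* (left) and *miR-486-3p* (right) for the 8 reported targets (coloured) and for the genes in use of 4 lists drawn around them (grey), with the median of each row as a black bar. Dotted lines mark −0.5 and 0.5. The median of the 8 genes is −0.19 on the left and 0.47 on the right, and each grey row spreads to both sides of 0 in both panels.

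The pathways around the 8 genes were described by 4 lists that leave the 8 genes out. The lowest and highest gene of a list were taken among genes with every probe well above background on the 4 arrays. The other genes of a list named below were chosen after their values were seen. Beside the counts of each list, 15.9% of all genes were lower and 13.8% higher after *miR-486-5p*. After *miR-486-3p* it was 27.2% and 30.4%, and under median scaling 6866 lower and 2932 higher of 16446 genes. In a list limma called a gene when any of its probes was called. No share of all genes was computed for such calls. Under median scaling the medians after *miR-486-3p* turned negative in the IGF receptor list (−0.052), the FOXO list (−0.051) and the TGF-beta list (−0.10), with the median of all genes at −0.32. After *miR-486-5p* it was −0.060 in the IGF receptor list and −0.0052 in the TGF-beta list. In the list of IGF receptor, PI3K and AKT signalling, 27 of 28 genes were in use. After *miR-486-5p*, 2 of them were lower and 5 higher, with a median of 0.016, and limma called 1 lower and 2 higher. The lowest was *IRS1*, the adaptor below the IGF and insulin receptors, at −1.23, of which 1 of 2 probes was called (adjusted p = 0.0475). The other gene counted as lower was *RHEB*, which activates mTOR, at −0.69 (adjusted p = 0.0648, not called). The highest was *TSC1*, an inhibitor of mTOR signalling, at 0.77 (adjusted p = 0.0557). The other 4 counted as higher were *IRS2* at 0.85, *PHLPP2* at 0.71, *AKT2* at 0.54 and *RPTOR* at 0.52, and the calls among them were *IRS2* (adjusted p = 0.0488) and 1 of 3 probes of *AKT2* (adjusted p = 0.0475). After *miR-486-3p*, 4 were lower and 11 higher with a median of 0.32, and limma called 7 lower, 12 higher and 1 in both directions by different probes. Median scaling turned the counts past 0.5 to 11 lower and 3 higher. *PIK3R2* and *INSR* were its extremes there. The others counted as lower were *RHEB* at −0.87, *IRS1* at −0.70 and *PHLPP1* at −0.67, each with a called probe. The gene called both ways was *AKT2*, whose 3 probes ranged from −0.76 to 0.77.

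The list of FOXO factors and genes they are known to regulate had 14 of 18 genes in use after *miR-486-5p*, with 0 lower and 4 higher and a median of 0.12. Limma called 1 lower, a probe of *FOXO6* at −1.37 (the mean over its 2 probes was −0.38), and 1 higher, *FOXO4*. *CDKN1B*, an inhibitor of cell cycle kinases, at 0.60 and *SESN1*, a stress-induced sestrin, at 0.61 were counted as higher without a call. *GADD45A*, a stress response gene, was its lowest at −0.45 (not called) and *BCL6*, a transcriptional repressor, its highest at 0.83 (adjusted p = 0.0503). After *miR-486-3p* 15 genes were in use, 1 lower and 7 higher with a median of 0.32 (4 lower and 4 higher under median scaling), and limma called 1 lower and 8 higher. *FBXO32*, a ubiquitin ligase subunit, rose by 1.93 (adjusted p = 0.00797) and *CAT*, which encodes catalase, fell by 0.86 (adjusted p = 0.0276).

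In the list of TGF-beta receptors and SMADs all 24 genes were in use, with 6 lower and 6 higher after *miR-486-5p* (median 0.071; limma called 2 lower and 2 higher) and 6 lower and 10 higher after *miR-486-3p* (median 0.27, limma the same numbers). Median scaling gave 9 lower and 7 higher after *miR-486-3p*. *SMAD6*, an inhibitory SMAD, was the lowest after *miR-486-5p*, where it fell by 1.80 (adjusted p = 0.0475), and the highest after *miR-486-3p*, where it rose by 2.76 (adjusted p = 0.00768). Its scaled log2 signal was −2.39 and −2.19 in the mock group, −4.08 with *miR-486-5p* and 0.47 with *miR-486-3p*. The probe was thus dim with *miR-486-5p*, where the dimmest of the 11 probes stood at −3.72. The value of *SMAD6* under the normexp correction is not given here. *TGFBR2*, the type II receptor for TGF-beta, rose by 1.01 after *miR-486-5p* (adjusted p = 0.0475). The other calls there were a fall of the ligand *TGFB2* by 1.13 (adjusted p = 0.0475) and a rise of the co-receptor *TGFBR3* by 0.97 (adjusted p = 0.0480). After the opposite strand the inhibitory *SMAD7* rose by 2.28 (adjusted p = 0.00762), and *TGFB1*, another ligand, fell by 1.56 (adjusted p = 0.00837).

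The 8 genes of the PIM kinases and sirtuins split into 2 lower and 3 higher after *miR-486-5p* (median 0.18; limma 1 lower and 1 higher) and 3 and 3 after *miR-486-3p* (median −0.26; limma 4 lower and 3 higher). *SIRT4*, a mitochondrial sirtuin, was the highest after each strand, with rises of 1.08 (adjusted p = 0.0475) and 1.98 (adjusted p = 0.00762). *PIM3* and *PIM2*, given above, were the lowest. *SIRT5* was at −0.52 after *miR-486-5p*, with 1 of 4 probes called, and at −0.997 after *miR-486-3p*, with 3 called. Its probes ranged from −1.01 to −0.046 after *miR-486-5p* and from −1.95 to 0.45 after *miR-486-3p*. *SIRT6* and *SIRT7* were at 0.64 and 0.55 after *miR-486-5p* without a call. After *miR-486-3p*, *SIRT6* fell by 0.45 (adjusted p = 0.0371) and both probes of *SIRT7* rose, by 1.20 on average.

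**Figure D5:**
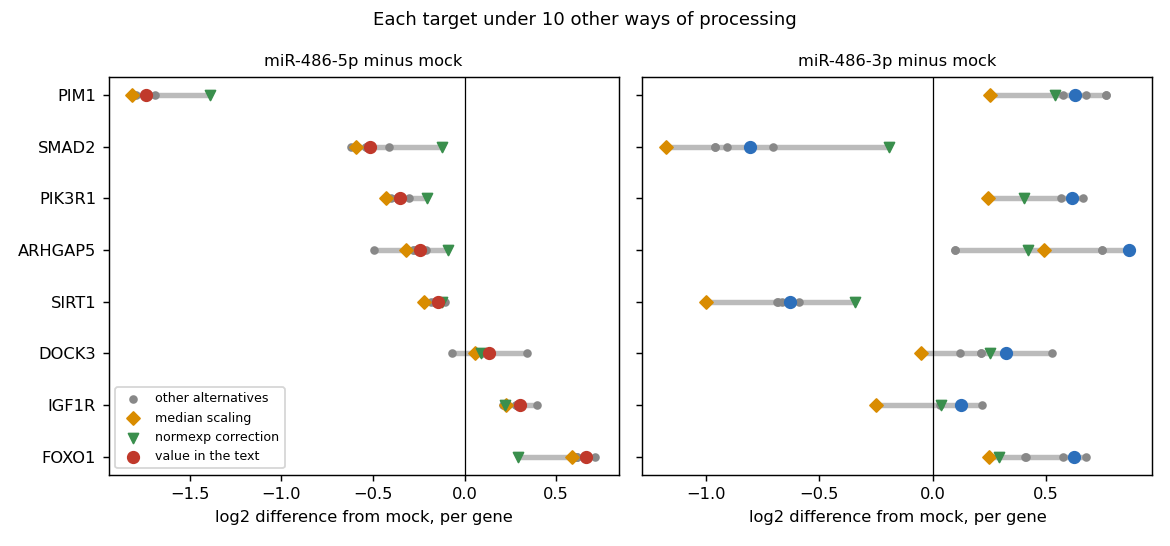
Log2 difference from mock of each of the 8 genes (horizontal axis) after *miR-486-5p* (left) and *miR-486-3p* (right), as given in the text (large circles) and under 10 other ways of processing (small symbols, with median scaling as diamonds and normexp background correction as triangles), joined by a grey bar. *PIM1* stays between −1.82 and −1.39 after *miR-486-5p*, and the bars of *DOCK3* (both strands) and of *IGF1R* after *miR-486-3p* cross 0. For genes with 1 probe, the filters and probe choices among the 10 return the value in the text.

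Across the 10 other ways of processing, the difference of *PIM1* after *miR-486-5p* stayed between −1.82 and −1.39 and that of *FOXO1* between 0.29 and 0.71. For these and the other genes with 1 probe, the filters and probe choices among the 10 could not change the value. *SMAD2* ranged from −0.62 to −0.12 with *miR-486-5p* and from −1.18 to −0.19 with *miR-486-3p*. *SIRT1* after *miR-486-3p* was −0.34 with the normexp correction, its value nearest to mock. The sign of an uncalled difference changed for *DOCK3* after *miR-486-5p* (−0.071 against mock 2 alone), and for *DOCK3* (−0.050) and *IGF1R* (−0.25) after *miR-486-3p* under median scaling.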

How the data were processed

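For 4 one-color arrays, the authors deposited the output of Agilent Feature Extraction 12.1.1.1, which gives every spot a background-corrected intensity (linear scale), and a table of log2 values of the same arrays whose normalization is not given in the sources used here. Those log2 values correlated with the scanner's at 0.9996 or more, each array having a median of 2.76. Here the log2 of the intensity minus the 75th percentile of each array was used. Outlier spots were left out. A probe entered a comparison if the mock pair or the transfected array was well above background, and a gene took the mean of its probes. A value for a group not well above background was set at the lowest detected signal, so its difference is a bound. Of 33080 probes with a RefSeq accession, 31104 matched a gene in a GRCh38.p14 table, which gave names only, since the assembly of the array annotation differs.

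limma 3.58.1 (R 4.3.3; lmFit and eBayes) was fitted to 4 arrays in 3 groups, with 1 residual degree of freedom and a prior of 1.75. It used probes that at least 1 group had well above background, adjusted by Benjamini-Hochberg, and was tested on simulated data. The simulation gave all 4 arrays the same spread, so it cannot check whether a transfected array varies like the mock pair. The number of arrays limits the precision. The members come from earlier literature on *miR-486-5p*, but they and the gene lists were proposed with earlier results of these data known. Named genes are the 8 members, their relatives, other reported targets, *GAPDH*, the lowest and highest gene of each list (with every probe well above background on the 4 arrays) and the 3 genes nearest to the lowest member. Further genes of the lists were named after their values were seen. *CD14* and the other markers were taken from lists of cell type genes. Alternatives were other scalings, background corrections, filters, probe choices and limits, the authors' log2 values, each mock array left out and the methods' t-test, which has 1 degree of freedom here. The values of 1 other reported target, counted in its list, and 1 list of genes are not reported here.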

Additional observations from a re-analysis of the deposited data

Results flagged for a closer look

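A total of 5 probes of the reported targets were called in the direct comparison of the strands, all higher after *miR-486-3p* than after *miR-486-5p* on the log2 scale (limma). Over all probes tested 43.4% were called in that comparison, 22% higher and 21.4% lower, so a call is not particular to these genes. The *ARHGAP5* probes among them belong to the same gene. *PIM1* differed by 2.37 and *PIK3R1* by 0.97. The *ARHGAP5* probes A_23_P48535, A_33_P3386453 and A_33_P3386459 differed by 1.43, 1.08 and 1.61. The *SIRT1* probe, which was not called here, was called lower after *miR-486-3p* in 5 of 7 other settings. Each strand has 1 array, so the difference between strands has no replicate of its own.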

How the results depend on the processing

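Beside 2 genes lower after each strand, the normexp correction gave 1 (*miR-486-5p*) and 0 (*miR-486-3p*), and a limit of −1 gave 1 and 0. Of all genes, 15.9% and 27.2% were lower, 8.21% and 18.7% with normexp, and 4.61% and 14.1% with that limit. Leaving out a mock array gave 1 to 2 genes (*miR-486-5p*) and 2 (*miR-486-3p*), where the count of 1 is without mock 1. Beside 1 probe called by limma after *miR-486-5p*, there were 0 with the authors' log2 values and 0 with no filter on dim probes (5 at an unadjusted p under 0.05 in each), 3 with normexp, 3 with probes well above background on all 4 arrays and 5 with limma's intensity trend. The share of all probes called rose likewise, from 7.56% to 32.5%, 30.5% and 34.7% in the last 3 of these settings. Beside 8 called after *miR-486-3p*, there were 5 with median scaling and 3 with no filter, and beside 5 called between the strands, 3 with no filter. The shares of all probes after *miR-486-3p* were 52.3%, 56% with median scaling and 25.5% with no filter. Between the strands they were 43.4% and 18.3% with no filter. The methods' t-test called 0 in each comparison, with 2, 1 and 3 probes at an unadjusted p under 0.05 in the *miR-486-5p* comparison, that of *miR-486-3p* and that between the strands. The other counts were within 1.5 times. The causes were not tested. Over all probes, 2532 were called after *miR-486-5p*, 0 with the authors' log2 values (12758 at an unadjusted p under 0.05), 0 with no filter (16345) and 0 by the methods' t-test (6167). Of 160 recomputed differences of the 8 genes, 120 moved by less than the SD of the mock arrays and 0 called ones changed sign. Many of the 160 could not move further. For genes with 1 probe, the filters and probe choices return the same value. Leaving out a mock array moves a difference by less than that SD in every case. Median scaling and normexp moved most of the differences by more, so the 120 is not a measure of robustness. No paired analysis was possible because the strands have 1 array each and share fewer than 2 replicate numbers with mock. Slide could not be fitted as a block (1 slide), and limma has no residual degree of freedom without a mock array.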
